A study of Mus musculus with 2 samples.

Results

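The LSD1-CoREST and NuRD corepressor genes were 10 genes, chosen by name, of 21779 nuclear protein-coding genes placed on the mouse assembly GRCm38.p6, another name for mm10. They encode subunits of complexes known to work with Gata1, its cofactor FOG-1 and the Gfi1 proteins: Kdm1a, Rcor1, Rcor3 and Hmg20b of LSD1-CoREST, Chd4, Mta1, Mta2 and Mbd3 of NuRD, and Hdac1 and Hdac2, which are shared by both. Gata1 occupancy was read from a list of 4135 peaks, and a peak was given to a gene when its midpoint lay in the gene body or within 50 kb of either end. The peaks came from 1 Gata1 ChIP library. The series also lists 1 control library of the same cells, titled input chromatin although its antibody field names a rabbit IgG, of which no processed file was analysed here. Both libraries were made from mouse embryonic stem cells differentiated towards blood in embryoid bodies for 5 days and sorted as positive for Runx1-ires-GFP and Gata1::mCherry, a population that the series calls primitive erythroid. The ChIP used a rabbit antibody to Gata1 on cells pooled over several sorts. There was no replicate library, and the peaks carry no height or score, so each site is given only as called or not called and read depth is unknown.

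Both complexes remove active chromatin marks. LSD1, encoded by Kdm1a, takes methyl groups off histone H3, and CoREST scaffolds such as Rcor1 tie it to the histone deacetylases Hdac1 and Hdac2. NuRD joins the same deacetylases to the nucleosome remodelling ATPase Chd4 and to the Mta and Mbd subunits. In red cell precursors, Gfi1b is known to bring LSD1-CoREST, and FOG-1 to bring NuRD, to genes that are silenced there. The question put to the peak list was whether Gata1 was also bound beside the genes for these cofactors.

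Gata1 was bound at Rcor1, in the gene and just outside both of its ends, and no peak was called within 10 kb of the other 9 genes. Within 50 kb, 5 of the 10 genes had a peak (50%, 95% Wilson interval 23.7 to 76.3%), against 32.0% of all protein-coding genes. These were Rcor1 with 3 peaks, Hmg20b and Hdac1 with 2 each, and Chd4 and Mbd3 with 1 each, making 9 distinct peaks. Kdm1a, Rcor3, Hdac2, Mta1 and Mta2 had none. Within 10 kb the count was 1 of 10 (10%, 1.79 to 40.4%) against 16.5% of all protein-coding genes, and in the gene body it was again 1 of 10, against 9.34%. With each window ending at the neighbouring protein-coding gene, 1 of 10 had a peak, against 18.1%. With each peak given only to its nearest protein-coding gene, 1 of 10 had a peak, against 14.7%. The share therefore lay above that of all genes at 50 kb and below it at 10 kb, and the intervals held the share of all genes at both distances. The intervals cover counting of genes only.

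**Figure D1:**
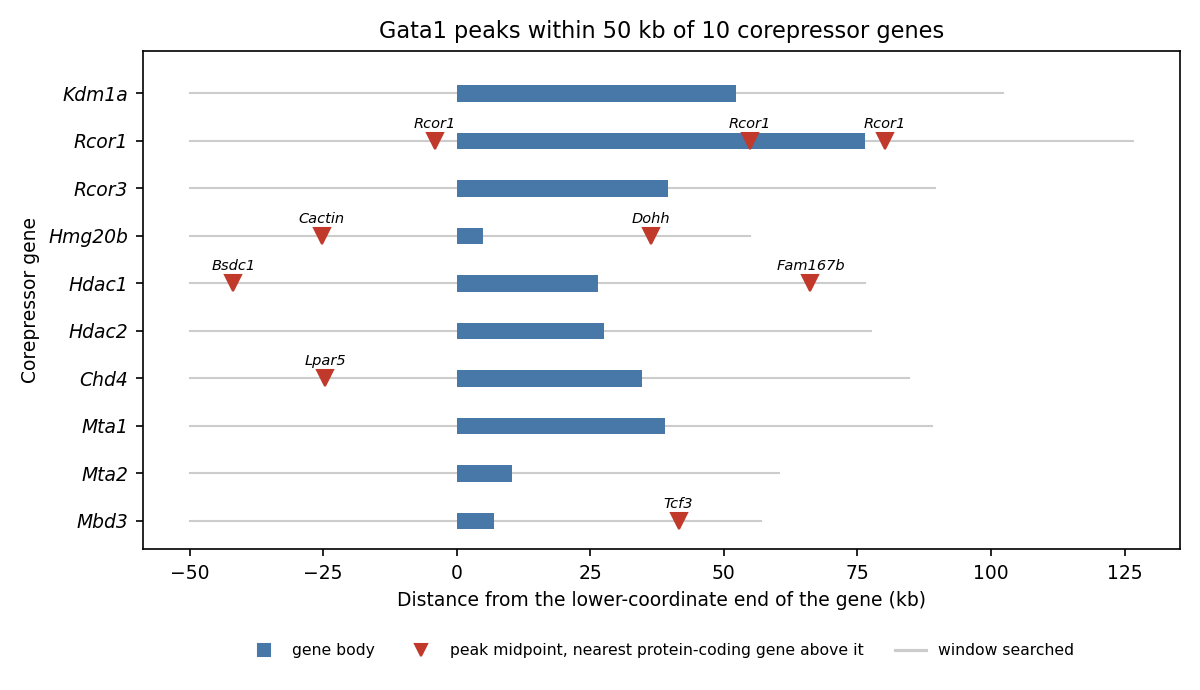
Position of each Gata1 peak midpoint (red triangles) relative to the body (blue bars) of the 10 corepressor genes, in kb from the lower-coordinate end of the gene; grey lines mark the 50 kb searched on either side, and the name over a triangle is the nearest protein-coding gene. Rcor1 alone had a peak in its body, and the 6 peaks of Hmg20b, Hdac1, Chd4 and Mbd3 each lay nearest to another gene.

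The sequences below are promoter sequences, some inside a peak and some not. The first 3 are the parts of annotated promoters that fall inside a peak assigned to Chd4, Mbd3 or Hmg20b. The other 2 are the promoter windows of Rcor1, which had the most peaks, and of Chd4, the only corepressor gene in the promoter table with a GATA motif in a promoter window. Neither of these 2 windows overlaps a peak. All are from RefSeq on GRCm38.p6, written from 5′ to 3′ on the strand of the gene. A promoter window runs from 250 bases before to 50 bases after an annotated start. Capitals mark the GATA motif, searched on both strands as the letters AGATAA, the letters AGATAG, the letters TGATAA or the letters TGATAG, so that TTATCT is the reverse complement of AGATAA.
Lpar5 promoter inside the Chd4 peak, chr6:125071195-125071384, plus strand: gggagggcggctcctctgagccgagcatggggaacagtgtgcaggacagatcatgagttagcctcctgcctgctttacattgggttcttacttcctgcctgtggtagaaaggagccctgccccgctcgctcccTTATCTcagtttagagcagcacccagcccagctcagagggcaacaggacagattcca
Tcf3 promoter inside the Mbd3 peak, chr10:80433799-80433885, minus strand: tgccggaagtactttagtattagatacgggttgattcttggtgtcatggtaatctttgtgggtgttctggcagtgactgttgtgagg
Cactin promoter inside an Hmg20b peak, chr10:81320853-81320915, plus strand: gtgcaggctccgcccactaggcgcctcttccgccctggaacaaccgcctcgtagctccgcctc
Rcor1 promoter, chr12:111039117-111039416, plus strand: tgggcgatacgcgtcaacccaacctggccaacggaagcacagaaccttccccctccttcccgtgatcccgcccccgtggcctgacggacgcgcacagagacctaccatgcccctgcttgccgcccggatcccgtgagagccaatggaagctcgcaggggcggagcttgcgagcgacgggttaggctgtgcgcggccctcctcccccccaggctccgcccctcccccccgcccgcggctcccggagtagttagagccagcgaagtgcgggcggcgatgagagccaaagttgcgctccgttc
Chd4 promoter, chr6:125095731-125096030, plus strand: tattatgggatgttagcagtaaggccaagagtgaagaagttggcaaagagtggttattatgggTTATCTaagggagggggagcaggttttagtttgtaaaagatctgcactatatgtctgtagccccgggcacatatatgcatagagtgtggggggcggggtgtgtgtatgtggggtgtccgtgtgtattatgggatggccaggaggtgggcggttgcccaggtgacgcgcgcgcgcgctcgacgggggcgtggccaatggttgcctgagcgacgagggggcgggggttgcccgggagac

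The stretch of Lpar5 promoter under the Chd4 peak held 1 GATA motif, centred 64 bp from the midpoint of the peak. The stretches of Tcf3 and Cactin promoter, of 87 and 63 bases, held none of these letters, and the rest of their peaks lay outside the promoter windows and was not searched. Of 12 promoter windows of 9 corepressor genes, 1 held the motif, against 29.8% of all 32851 promoter windows of the same length. The 3 windows of Hmg20b overlap one another, as do the 2 of Chd4, so the 12 are not separate. All windows came from 27025 genes, more than the 21779 protein-coding genes, so they were not limited to protein-coding genes. Guanine and cytosine made up a median of 66.0% of the bases in the windows of the corepressor genes and 52.7% in all windows, and the part of base composition in the motif count was not tested. No peak overlapped a promoter window of these 9 genes. Hdac1 had no entry in the promoter table. A motif match describes letters and does not show binding.

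Among Kdm1a, Rcor1, Rcor3 and Hmg20b, Rcor1 was the only gene nearest to its own peaks. Rcor1 encodes CoREST, the scaffold that holds LSD1 to the deacetylases, and spans 76.5 kb at chr12:111039367-111115902 on the plus strand. Its first peak, chr12:111035103-111035502, lay 4.07 kb before the gene, inside the annotated long noncoding RNA gene Gm35846 and 1.44 kb from an end of that gene. The second, chr12:111094055-111094454, lay in the gene, 54.9 kb after its start and 21.6 kb before its far end. The third, chr12:111119255-111119654, lay 3.55 kb beyond the far end. Rcor1 was the nearest protein-coding gene to all 3 peaks, and no other protein-coding gene body lay within 50 kb of Rcor1. The only other protein-coding gene within 50 kb of any of these peaks was Traf3, at 46.9 kb from the third. At least 3 peaks within 50 kb were found for 3.35% of all protein-coding genes. That share covers genes of every length, and Rcor1 is the longest of the 10 corepressor genes. The cut at 3 peaks is the count at Rcor1 itself, the highest of the 10, so the share is not a measure of how unusual Rcor1 is.

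Its paralog Rcor3, a related CoREST scaffold of 39.5 kb on chromosome 1, had no peak within 50 kb, and its nearest peak was 99.99 kb away. Kdm1a, the demethylase gene itself, spans 52.3 kb on chromosome 4 and had its nearest peak at 240.0 kb, farther than the nearest peak of 62.2% of protein-coding genes. Kdm1a thus had no called peak within 100 kb of either end.

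Hmg20b encodes an HMG box subunit of LSD1-CoREST and is the shortest of the 10 genes, with 4.90 kb at chr10:81346046-81350943. It had 2 peaks in its window, and neither was nearest to it. The peak at chr10:81320516-81320915 lay 25.3 kb from its lower-coordinate end, which is downstream of this minus-strand gene. That peak was 0.388 kb from Cactin and 0.741 kb from Pip5k1c, and Hmg20b was the fifth nearest of 10 protein-coding genes within 50 kb. The peak at chr10:81382151-81382550 lay 31.4 kb upstream of Hmg20b. Dohh, the gene of an enzyme that modifies a translation factor, was 2.08 kb from it and Fzr1, a cell cycle regulator, was 3.98 kb from it. With 11 other protein-coding genes within 50 kb, Hmg20b had the most neighbours of the 10 genes.

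The shared deacetylase genes differed in their windows but had no peak close by. Hdac1 spans 26.5 kb at chr4:129516104-129542646 and had peaks 41.8 kb below and 39.7 kb above it, the most distant of the 9 peaks from their corepressor gene. The lower peak, chr4:129474150-129474549, lay inside Bsdc1, and 5 protein-coding genes were nearer to it than Hdac1. The upper peak, chr4:129582137-129582536, was 3.76 kb from Fam167b and 8.70 kb from Lck, which encodes a kinase of T cell receptor signalling, and 7 protein-coding genes were nearer to it than Hdac1. Hdac2, which spans 27.6 kb on chromosome 10 and had no protein-coding neighbour within 50 kb, had its nearest peak at 279 kb. This was the largest distance among the 10 genes, and 65.2% of protein-coding genes had a nearer peak.

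Of the NuRD genes, Chd4 and Mbd3 had 1 peak each, in the promoter region of another gene. Chd4, the ATPase gene, spans 34.6 kb at chr6:125095980-125130591 on the plus strand, and its peak at chr6:125071195-125071594 lay 24.6 kb upstream. That peak was inside Lpar5, which encodes a receptor for lysophosphatidic acid, with its midpoint 59 bp from an annotated Lpar5 start. Acrbp and Ing4, at 8.13 and 22.1 kb, were also nearer to the peak than Chd4. Mbd3, whose methyl-binding-domain protein is a core NuRD subunit, spans 6.99 kb at chr10:80392539-80399531 on the minus strand, and its peak at chr10:80433799-80434198 lay 34.5 kb upstream. The midpoint of that peak was 0.022 kb from the higher-coordinate end of Tcf3, which is the 5′ end of this minus-strand gene. It was 363 bp from the Tcf3 start in the promoter table. Tcf3 encodes the E2A factors, known partners of Tal1 in blood cells. Uqcr11, a gene of the respiratory chain, lay between, 27.2 kb from the peak.

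The Mta scaffold genes had no peak in their windows. The nearest peak was 81.5 kb from Mta2, which spans 10.4 kb on chromosome 19, and 97.8 kb from Mta1, which spans 39.0 kb on chromosome 12. Mta2 was the first gene beyond the 50 kb limit, well outside it, and Hdac1 at 39.7 kb was the last gene within it. With 100 kb in place of 50 kb, 8 of the 10 genes had a peak (80%, Wilson interval 49.0 to 94.3%), against 43.9% of all protein-coding genes, a share that this interval did not hold. No share at 100 kb was computed among genes of like length or like number of neighbours. Of these 8, Mta1 at 97.8 kb and Rcor3 at 99.99 kb were only just within 100 kb. Kdm1a and Hdac2 had none.

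**Figure D2:**
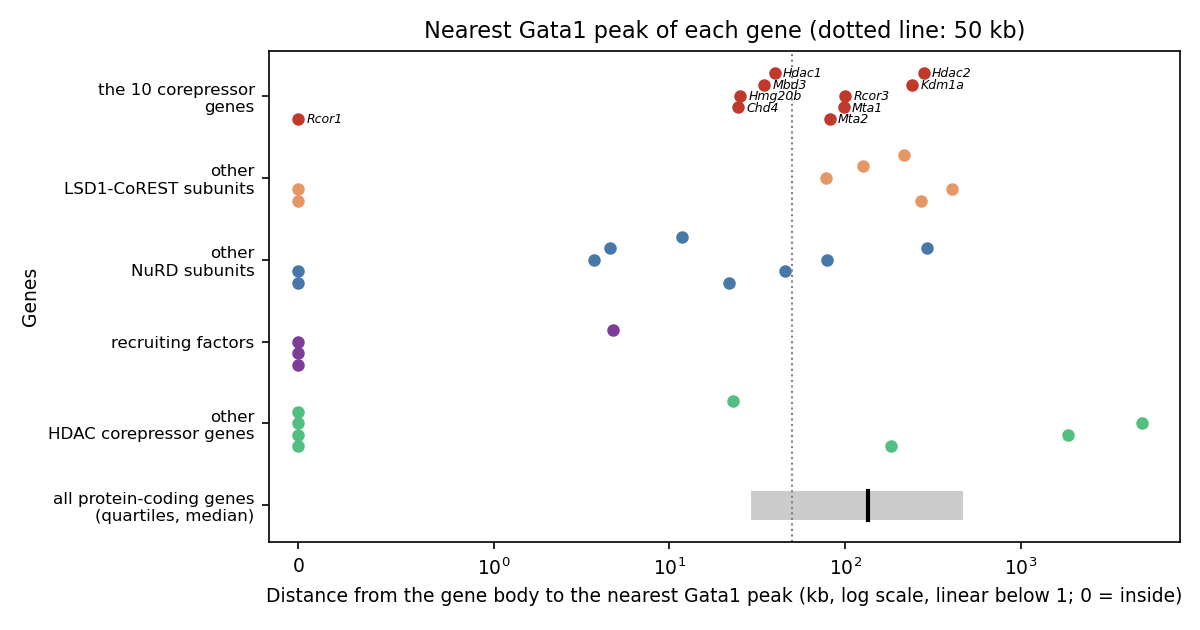
Distance from each gene body to the nearest Gata1 peak in kb (log scale, linear below 1, 0 for a peak inside the gene), one point per gene, with the median (line) and quartiles (bar) of all protein-coding genes. Rcor1 lies at 0 and the other 9 corepressor genes lie between 24.6 and 279 kb.

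Over the 10 genes the median distance to the nearest peak was 60.6 kb, against 135 kb over all protein-coding genes (quartiles 29.0 and 467 kb), and 8 of the 10 genes lay below that median of all genes. The corepressor genes also lay in gene-rich surroundings. Within 50 kb they had a median of 6 other protein-coding genes, against 3 for all protein-coding genes, and the median was 7 for the 5 genes with a peak and 4 for the 5 without. The corepressor genes had a peak in 50% of cases within 50 kb and 10% within 10 kb, against 47.9% and 19.0% of the 1136 protein-coding genes with 6 such neighbours. Among the 13585 protein-coding genes within the length range of the corepressor genes, 4.90 to 76.5 kb, the shares were 34.8% and 17.0%. The part of gene density in the 50 kb and 100 kb counts was not tested.

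The 9 peaks were next described by where they lay, beside all nuclear peaks. Of the 9 peaks, 2 were centred no more than 1 kb from a gene end (22.2%, Wilson interval 6.32 to 54.7%, against 26.0% of 4133 nuclear peaks). A further 4 lay deeper inside a gene (44.4% against 50.8%) and 3 outside genes (33.3% against 23.2%). Annotated transcription starts lay within 1 kb of 3 of the 9 midpoints (33.3%, 12.1 to 64.6%), those at Lpar5, Tcf3 and Cactin, against 19.8% of nuclear peaks. The Lpar5 peak was counted as deeper inside a gene because the gene table extends Lpar5 beyond this start. Each interval held the share of all peaks. The corepressor gene was the nearest protein-coding gene for the 3 Rcor1 peaks and for none of the other 6. A median of 5 protein-coding genes lay within 50 kb of the 9 peaks, against 2 for nuclear peaks. The rule gives each of the 9 peaks at least 1 such gene, while 3779 of the 4133 nuclear peaks had any. The medians are therefore not on an equal footing.

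**Figure D3:**
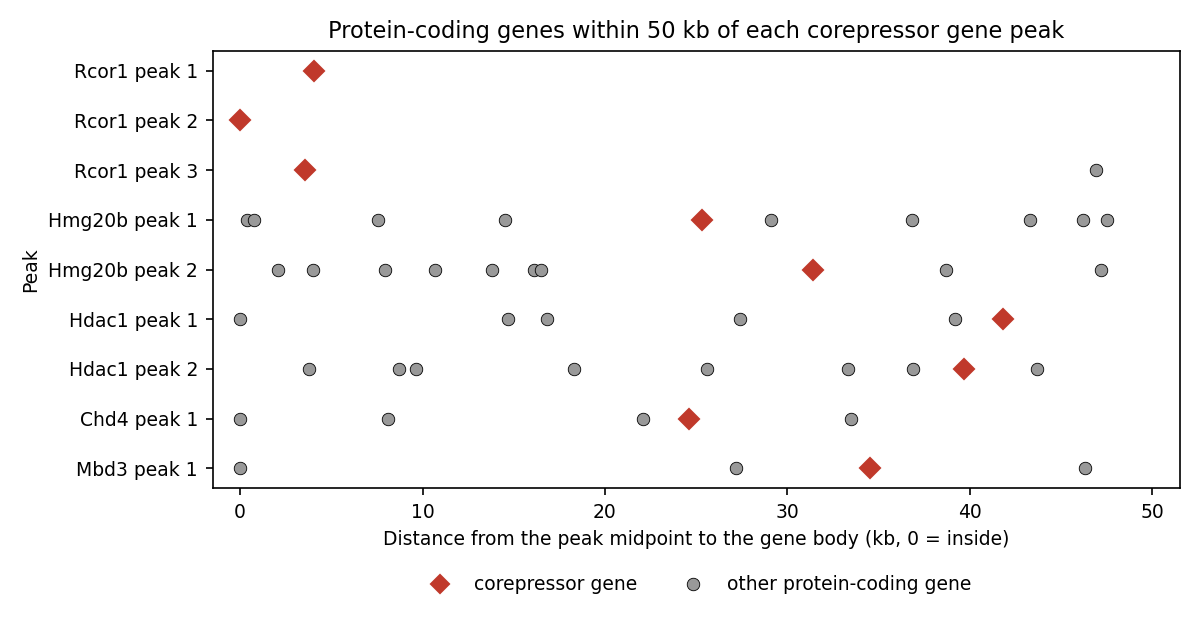
Distance in kb from each of the 9 peaks, numbered by position within a gene's window, to every protein-coding gene body within 50 kb. The corepressor gene (red diamond) is the nearest gene in the 3 Rcor1 rows, and in the other 6 rows between 2 and 7 other genes (grey circles) are nearer.

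Of the paralog pairs within the 10 corepressor genes, only Rcor1 and Rcor3 differed in their peaks at both 50 and 10 kb. Rcor1 had 3 peaks at both distances and Rcor3 had 0, and Rcor2, the remaining CoREST paralog, had 0 within 50 kb with its nearest peak at 271 kb. Hdac1 had 2 within 50 kb and Hdac2 had 0, but at 10 kb both had 0. Mta1 and Mta2 had 0 each at both distances, and Mta3, the remaining Mta paralog, had 2 within 50 kb, the nearer at 45.6 kb. Mbd3 had 1 peak at 34.5 kb, and Mbd2, which takes the place of Mbd3 in a separate form of NuRD, had 1 at 4.59 kb. Chd4 had none in the gene, and its paralogs Chd3 and Chd5 had 1 each in the gene. These differences are between single genes in 1 library and carry no test.

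The other genes of the pathway were counted by the same window. Shares among genes of like length or like number of neighbours were not computed for any list of related genes. A peak lay within 50 kb of 2 of 7 other LSD1-CoREST genes (28.6%, 8.22 to 64.1%, against 32.0% of all protein-coding genes): Gse1, with 8 peaks of which 7 were in the gene, and Phf21a, which encodes the reader BHC80, with 2. Rcor2, Zmym2, Zmym3, Ctbp1 and Ctbp2 had none. Of 9 other NuRD genes, 7 had one (77.8%, 45.3 to 93.7%, against 32.0%), with 2 each at Mta3, Rbbp4, Chd3 and Chd5 and 1 each at Mbd2, Gatad2a and Gatad2b. Rbbp7 and Cdk2ap1 had none. At 10 kb the NuRD count was 4 of 9 (44.4%, 18.9 to 73.3%, against 16.5%), made up of Mbd2, Gatad2a, Chd3 and Chd5. It was 3 of 9 with each peak given only to its nearest protein-coding gene, against 14.7%, and 2 of 9 in the gene body, against 9.34%. All 4 factors that recruit the complexes had peaks within 50 kb (100%, 51.0 to 100%, against 32.0%). There were 8 at Zfpm1, which encodes FOG-1, 4 at Gfi1b, and 2 each at Gata1 and Gfi1. Zfpm1 and Gata1 had all of theirs in the gene, and the nearest of the Gfi1b peaks was 4.75 kb outside it.

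**Figure D4:**
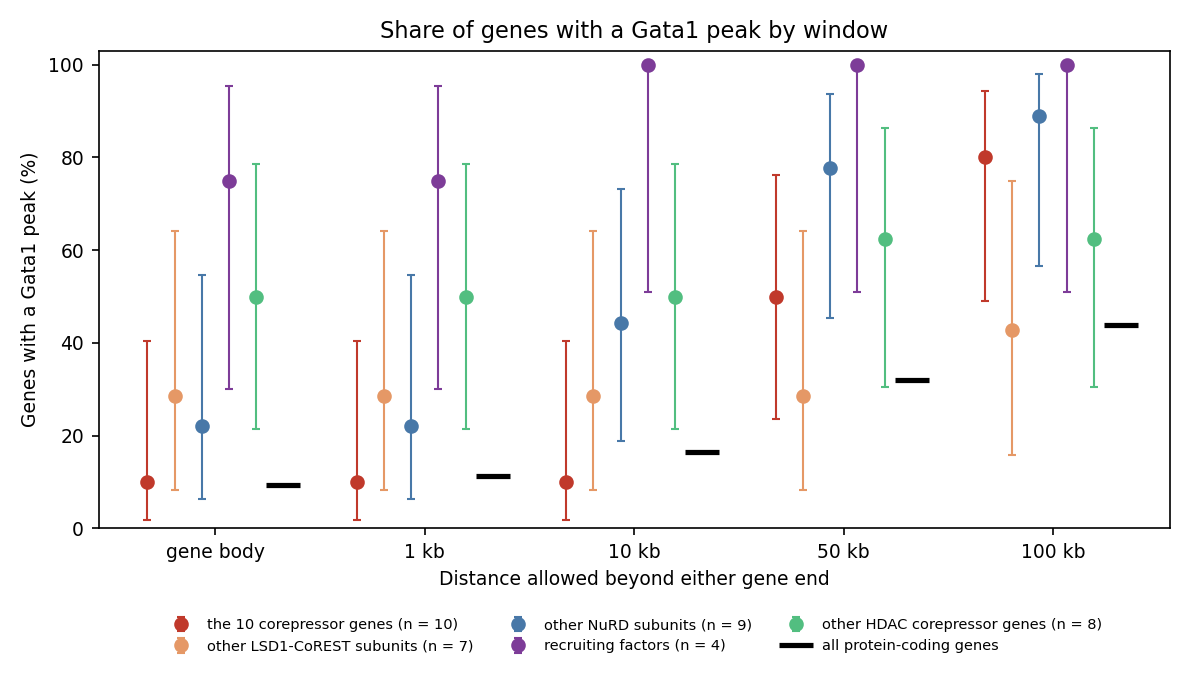
Share of genes in percent with a Gata1 peak midpoint in the gene body or within 1, 10, 50 or 100 kb, for the 10 corepressor genes and 4 lists of related genes (points, with 95% Wilson intervals) and for all protein-coding genes (black bars). The share of the corepressor genes is 10% up to 10 kb, 50% at 50 kb and 80% at 100 kb.

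Deacetylase corepressors outside LSD1-CoREST and NuRD had 5 of 8 genes with a peak within 50 kb (62.5%, 30.6 to 86.3%, against 32.0% of all protein-coding genes). A peak was in the gene for 4 of the 8 (50%, 21.5 to 78.5%, against 9.34%), namely Sin3a, Sap30, Ncor1 and Gps2. Within 10 kb the count was again 4 of 8, against 16.5%. For Hdac3 the nearest peak was 22.9 kb away. Sin3b, Tbl1x and Tbl1xr1 had none. Of the 10 corepressor genes, 5 had a peak within 50 kb and 1 within 10 kb, against 18 (64.3%, 45.8 to 79.3%) and 14 (50%, 32.6 to 67.4%) of all 28 related genes. Over all protein-coding genes the shares were 32.0% and 16.5%. The 28 include the 4 recruiting factors, all of which had a peak at both distances. The difference between the lists was not tested, and the lists were drawn up with earlier results of these data known.

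As a check on the labelled cell type, the same window was applied to marker genes. All 12 erythroid markers had a peak within 50 kb, among them Klf1, Epor, Alas2 and the embryonic globin genes Hba-x, Hbb-y and Hbb-bh1. Of 6 myeloid markers, 2 did (33.3%, Spi1 and Mpo), and of 4 endothelial markers, 1 did (25%, Kdr), counts near the 32.0% of all protein-coding genes. Within 100 kb, 5 of the 6 myeloid markers had a peak, against 43.9%. The 12 erythroid markers are not separate, because Hbb-y and Hbb-bh1 are neighbours on chromosome 7. Gata1 and Zfpm1 were among the 12 and were also counted above as recruiting factors. Peaks near a marker do not measure its expression, and Gata1 is itself a marker of these cells, so this describes where the factor was bound and no more.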

How the data were processed

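Gata1 ChIP-seq and input chromatin were made from sorted day 5 embryoid body cells. Per the labels' protocols, chromatin was fixed with 1% formaldehyde and libraries were size-selected for 150 to 400 bp. The authors deposited peak positions only, as chromosome, start and end, with every interval 400 bp wide. Bowtie2 2.0.6, MACS2 2.0.10 and build mm10 are named in the submitters' processing notes. How the control was used, and any threshold or filter, is not given in the sources used here. A peak's midpoint was compared with gene bodies of a RefSeq table of GRCm38.p6. The 2 mitochondrial peaks, mitochondrial genes and 340 entries with scaffold coordinates (under 3 Mb, except on the Y) were dropped, giving 49603 genes, of which 21779 were protein-coding. All 58 listed symbols matched. Strand and starts came from the RefSeq promoter table. With 1 library no test was made, and shares carry 95% Wilson intervals for counting only. The window count was tested on simulated data against direct enumeration. The members and lists were chosen with earlier results of these data known. Named were the 10 members, every related gene on the lists except some that are not reported here, and the protein-coding gene that holds each peak or lies nearest to it; other neighbours were chosen after their distances were seen, as were the comparisons with gene density, annotated starts and base composition. Python 3.11.15, numpy 2.4.6, pandas 2.3.3, statsmodels 0.14.6 and matplotlib 3.10.9 were used.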

Additional observations from a re-analysis of the deposited data

How the results depend on the processing

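The size of the window set the counts. Of the 10 corepressor genes, 5 had a peak with 50 kb, 8 with 100 kb, and 1 with 10 kb, with 1 kb, in the gene body only, with each peak given to its nearest protein-coding gene or its nearest gene of any kind, and with windows ending at the neighbouring protein-coding gene. The 9 distinct peaks became 17 with 100 kb, 3 with 10 kb or with the nearest protein-coding gene, 2 with the nearest gene of any kind, and 1 with 1 kb or the gene body. In each setting that left 1 gene, peaks are dropped by construction. Any overlap in place of the midpoint left 5 genes and 9 peaks, and counting peaks within 1 kb of each other once left 9 peaks. Hdac1 had 0 peaks with 10 kb. Of the 28 related genes, which include the 4 recruiting factors, 18 had a peak (64.3%, against 32.0% of all protein-coding genes). With 1 kb or the gene body only, 11 did (39.3%, against 11.3% and 9.34%). With gene ends drawn at 2.5 kb, 4 of the 9 peaks lay at a gene end. The nearest gene of any kind was chosen after seeing the data. Depth is unknown, so binding under the unstated threshold would be missed, and a count of peaks says nothing of their strength. No paired analysis was possible because there was 1 ChIP library.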

Other observations

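The sirtuins and 4 families of chromatin genes that share a symbol stem with corepressor genes were counted by the same 50 kb window, with the families chosen after the corepressor counts were seen. Of 16 lysine demethylase genes (Kdm) other than Kdm1a, 8 had a peak, and it lay in the gene for Kdm2b, Kdm4b, Kdm6b and Kdm7a. Kdm1b, the closest relative of Kdm1a, had 1 peak at 24.2 kb, and Kdm5a, Kdm5b, Kdm5c and Kdm5d had none. Of 9 histone deacetylase genes (Hdac) other than Hdac1 and Hdac2, 6 had a peak, in the gene for Hdac4 and Hdac8 and 2.41 kb away for Hdac7. Of 8 chromodomain helicase genes (Chd) other than Chd4, 4 had a peak, in the gene for Chd3, Chd5 and Chd7, where Chd7 had 2. Of 7 methyl-CpG binding domain genes (Mbd, with Mbd3l1 and Mbd3l2) other than Mbd3, 4 had a peak, in the gene for Mbd1 and 1.33 kb away for Mbd6. The sirtuins, deacetylases of another class, had a peak for 1 of 7 genes, Sirt2, at 25 kb. Over all protein-coding genes the share was 32.0%. None of these counts was tested.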
